A study of Homo sapiens with 12 samples.

Results

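The interferon-λ genes IFNL1, IFNL2 and IFNL3, the interferon-β gene IFNB1 and the 4 genes for the receptor chains IFNLR1, IL10RB, IFNAR1 and IFNAR2 are described here in KYSE150 cells. KYSE150 is an established human cell line from an esophageal squamous cell carcinoma. They were taken by symbol from the deposited gene count table, where 8 of 8 were found among 24302 features. These genes were chosen with results of the same 12 libraries known, mainly the difference in the interferon-λ genes between WT and GFP cells. Their values in comparisons that involve WT or GFP are therefore a description and carry no test.

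All cells were KYSE150 in RPMI 1640 with serum, and 4 groups of 3 libraries were compared. Mut_IDR3 cells carried GFP-TFAP2β-Mut_IDR3 and ΔIDR3 cells carried GFP-TFAP2β-ΔIDR3, forms of the transcription factor TFAP2β that the series calls deficient in liquid-liquid phase separation, both altered in an intrinsically disordered region. WT cells carried GFP-TFAP2β of normal sequence and GFP cells carried GFP alone. The promoter and vector of the constructs, and whether a line was 1 clone, are not given in the sources used here. No label says that replicates were separate cultures, so a p-value here covers the spread among the sequenced samples only, and that spread may be technical.

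The libraries held 30.7 to 43.5 M counts. TFAP2B, the gene of TFAP2β, averaged 702 ± 25.9 CPM (counts scaled to the library size) in Mut_IDR3, 704 ± 62.8 in ΔIDR3, 280.3 ± 45.6 in WT and 0.124 ± 0.142 in GFP (SD, n = 3 each). Both mutants thus held more TFAP2B RNA than WT, with log2 fold changes of 1.32 in Mut_IDR3 and 1.33 in ΔIDR3 (edgeR quasi-likelihood test with Benjamini-Hochberg adjustment, adjusted p = 5.11e-07 and 3.07e-07), and the part of that difference in the values below was not tested. The summed level of 8 squamous epithelial markers, keratins among them, was 5657 to 5843 CPM in Mut_IDR3, 4812 to 5061 in ΔIDR3, 7222 to 8231 in WT and 5577 to 5773 in GFP. The sum thus moved with the groups, and its part in the results was not tested. Its members did not move together. KRT17 averaged 2362 CPM in WT and 775 in GFP, and KRT14 806 and 227. KRT6A, SFN and PERP were also higher in WT. KRT5 was lower in WT, at 2902 CPM against 3416 in GFP, as was TP63, at 126 against 162. EPCAM was at 172 and 173 CPM. The summed level of 9 leukocyte markers was 0.394 to 0.450 CPM in Mut_IDR3, 0.324 to 0.484 in ΔIDR3, 0.296 to 0.507 in WT and 0.464 to 0.855 in GFP. Of these 9 genes PTPRC, MS4A1, CLEC4C and LILRA4, the last pair of which mark plasmacytoid dendritic cells, were at 0 counts in all 12 libraries. CD14, LYZ, ITGAM, CD3E and IL3RA had low counts in some libraries. CD3E had 20 counts over Mut_IDR3, 13 over ΔIDR3, 27 over WT and 33 over GFP. IL3RA had 14, 15, 4 and 21 in that order, and CD14 had 14, 17, 0 and 19.

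Interferon-β is a type I interferon and binds a receptor of the chains IFNAR1 and IFNAR2. Interferons λ are type III interferons, typical of epithelia, and bind a receptor of IFNLR1, the chain specific to them, and IL10RB, a chain shared with the receptors of interleukins 10, 22 and 26. Both receptors signal through the kinases JAK1 and TYK2 to transcription factors, STAT2 and IRF9 among them, which switch on interferon-stimulated genes.

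The promoters of the interferon genes are shown first, since their transcripts were at or near 0 counts in 3 of the 4 groups. They are the bases before the start of transcription in RefSeq (GRCh38.p14), read 5′ to 3′ on the strand of the gene and cut where a GENCODE transcript begins. Those of IFNL1 (chr19:39296157-39296324, plus strand), IFNL2 (chr19:39268146-39268395, plus strand) and IFNB1 (chr9:21077964-21078192, minus strand) read as follows, with matches to the searched motifs in capitals.
IFNL1: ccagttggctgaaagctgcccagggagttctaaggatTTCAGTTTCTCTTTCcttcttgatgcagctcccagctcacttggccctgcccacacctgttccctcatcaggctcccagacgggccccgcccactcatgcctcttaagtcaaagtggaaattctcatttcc
IFNL2: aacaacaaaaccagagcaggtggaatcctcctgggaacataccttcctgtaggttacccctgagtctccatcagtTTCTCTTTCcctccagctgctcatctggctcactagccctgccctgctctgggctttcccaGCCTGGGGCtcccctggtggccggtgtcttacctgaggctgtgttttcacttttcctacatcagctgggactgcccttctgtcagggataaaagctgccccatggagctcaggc
IFNB1: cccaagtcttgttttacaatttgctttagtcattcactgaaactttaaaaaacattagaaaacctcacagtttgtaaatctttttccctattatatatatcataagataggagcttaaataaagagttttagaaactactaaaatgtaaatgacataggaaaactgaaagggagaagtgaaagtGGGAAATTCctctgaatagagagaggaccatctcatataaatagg

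The motifs, searched on both strands over 250 bases before the start, were the IRF element GAAANNGAA, bound by interferon regulatory factors, the AP-2 motif GCCNNNGGC, bound by the AP-2 family to which TFAP2β belongs, and the NF-kB motif GGGANNTTC. They were found in 7.06%, 19.67% and 3.57% of 27305 RefSeq promoters of that length. IFNL1 held 2 overlapping matches to the IRF element on its minus strand, at −213 to −205 and −207 to −199 from the start, and none to the AP-2 motif. IFNL2 held 1 IRF match at −175 to −167 and 1 AP-2 match at −114 to −106. The promoter of IFNL3 held the same matches at the same places, and differed from that of IFNL2 at 1 of 250 bases, C31T, with the base of IFNL2 first and positions counted from 1 at the 5′ end. IFNB1 held 1 NF-kB match at −66 to −58 and none to the exact letters of the IRF element. Among the receptor genes, IFNLR1 held 2 AP-2 matches and 1 NF-kB match, IFNAR1 held 2 overlapping AP-2 matches and IL10RB held none of the 3 motifs. IFNAR2 had no promoter entry and was not searched. The IFNLR1 window lies inside the gene as GENCODE places it, since a GENCODE start lies further upstream. IFNL3 and IFNAR1 each had 2 RefSeq starts, and only the first listed was used. A match is a description of letters and not a binding site. Sequences that differ from these patterns in a base or in spacing were not searched. The lack of a match, as to the IRF element in IFNB1, therefore does not show that a gene lacks a site.

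Transcripts of the 4 interferon genes were counted in WT libraries and almost nowhere else. IFNL1 (ENSG00000182393, GRCh38 chromosome 19, 39296325 to 39298673, plus strand) encodes interferon-λ1. It had 0 counts in the 6 libraries of the mutants, 1052, 793 and 1196 counts in WT libraries and 0 counts in the 3 GFP libraries. The WT counts are 28.98, 23.47 and 28.88 CPM, a mean of 27.1 ± 3.15 CPM (SD, n = 3). No library of another group reached even 1 count, so the groups did not overlap. Against a floor of 3 counts over a group, which is 0.0267 CPM in Mut_IDR3, 0.025 CPM in ΔIDR3 and 0.0273 CPM in GFP, IFNL1 was at least 1023-fold lower in Mut_IDR3 and at least 1090.1-fold lower in ΔIDR3 than in WT. In WT it was at least 1000.05-fold higher than in GFP. In bulk RNA, fewer cells that make a transcript and less transcript per cell cannot be told apart. Floors and intervals cover counting error only.

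IFNL2 (ENSG00000183709, chromosome 19, 39268514 to 39270092, plus strand), for interferon-λ2, had 0, 0 and 2 counts in Mut_IDR3, 0 in each ΔIDR3 library, 553, 484 and 552 in WT and 0 in each GFP library. The WT mean was 14.3 ± 0.952 CPM. It was lower in Mut_IDR3 than in WT by a factor of 802 (95% counting interval 222 to 6629), at least 570-fold lower in ΔIDR3 than in WT, and at least 523-fold higher in WT than in GFP. The 2 counts of 1 Mut_IDR3 library were the only ones outside WT.

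IFNL3 (ENSG00000197110, chromosome 19, 39243553 to 39245129, minus strand), for interferon-λ3, had 0 counts in the 6 mutant libraries, 663, 570 and 700 in WT and 0, 2 and 1 in GFP. The WT mean was 17.3 ± 0.794 CPM. This gene was at least 650-fold lower in Mut_IDR3 and at least 693-fold lower in ΔIDR3 than in WT, and the ratio of WT to GFP was 636 (95% counting interval 217 to 3085). IFNL2 and IFNL3 are near-identical copies. Of the stretches of 50 bases in their transcripts, 32.0% of those of IFNL2 and 32.1% of those of IFNL3 occur in the other gene and none occurs in IFNL1, so the split of reads between IFNL2 and IFNL3 is uncertain, also for the few counts in Mut_IDR3 and GFP. Whether reads that match both genes were split or dropped is not given in the sources used here, and reads dropped would lower both genes against IFNL1.

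IFNB1 (ENSG00000171855, chromosome 9, 21077105 to 21077963, minus strand) encodes interferon-β. It had 0 counts in the 6 mutant libraries, 30, 14 and 25 counts in WT and 0 in the 3 GFP libraries. The WT level was 0.615 ± 0.206 CPM, so its SD was a larger part of the mean than for the λ genes. It was at least 23.2-fold lower in Mut_IDR3 and at least 24.7-fold lower in ΔIDR3 than in WT, and at least 22.7-fold higher in WT than in GFP. These bounds are smaller than those of the λ genes because they scale with the counts in WT.

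**Figure D1:**
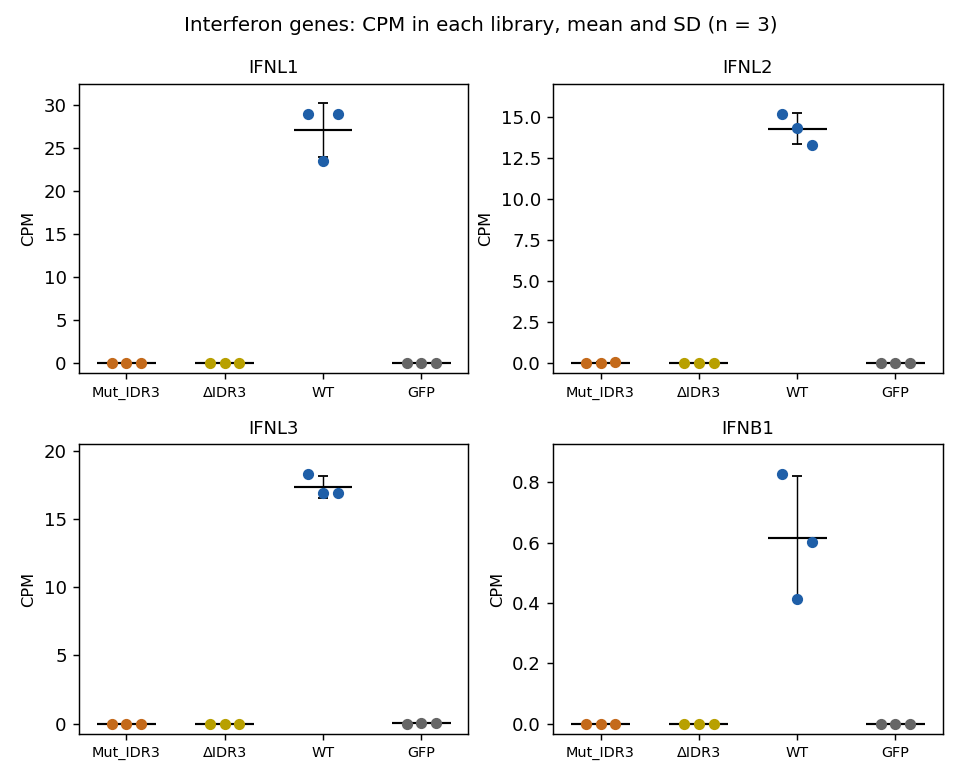
Level of the 4 interferon genes in CPM (vertical axes, each from 0 and to its own scale) in each library of Mut_IDR3, ΔIDR3, WT and GFP. Points are libraries, the line is the mean and the bar the SD (n = 3). WT libraries sit between 23.47 and 28.98 CPM for IFNL1 and between 0.414 and 0.826 CPM for IFNB1, and all other libraries lie at or next to 0.

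Within WT, the λ genes made up nearly all interferon counts. Of the summed counts of the 4 genes, IFNL1 took 45.8%, 42.6% and 48.4% in the 3 libraries, IFNL3 took 28.9%, 30.6% and 28.3%, and IFNL2 took 24.1%, 26.0% and 22.3%. IFNB1 took 1.31% (95% Clopper-Pearson interval 0.882% to 1.86%), 0.752% (0.412% to 1.26%) and 1.01% (0.655% to 1.49%). The order was the same in each WT library, and the shares of IFNL2 and IFNL3 carry the uncertainty of their shared sequence. The count ratio of IFNL3 to IFNL2 was 1.22 ± 0.0473 and varied least, that of IFNL1 to IFNL2 was 1.90 ± 0.265, and that of IFNL1 to IFNB1 was 46.5 ± 10.8 (SD, n = 3 each). A scale that allows for exon length is CPM per kilobase of exon, with all annotated exons of a gene merged. The WT levels on it were 31.6 ± 3.68 for IFNL1, 22.5 ± 1.03 for IFNL3, 19.4 ± 1.29 for IFNL2 and 0.716 ± 0.240 for IFNB1. The libraries of IFNL3 and IFNL2 did not overlap on that scale, at 21.9 to 23.7 and 18.1 to 20.7.

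Counts of other interferons were all but absent. Of 18 further interferon genes, IFNA1, IFNA2, IFNA4, IFNA5, IFNA6, IFNA7, IFNA8, IFNA10, IFNA13, IFNA14, IFNA16, IFNA17, IFNA21, IFNK, IFNW1 and IFNG had 0 counts in all 12 libraries. IFNL4, the neighbour of IFNL3, had 1 and 2 counts in WT replicates 2 and 3 and 0 in the other 10 libraries. IFNE, an epithelial type I interferon, had 12 counts over the Mut_IDR3 libraries, 30 over ΔIDR3, 1 over WT and 34 over GFP. These counts were too low for the test, and in this gene WT was the lowest group.

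The genes with the pattern most like IFNL1 were sought as the smallest root mean square difference of log2 CPM, each gene centred on its mean over the 12 libraries, among 11380 named features with a mean of at least 1 CPM. They were IFNL3 at 0.48, IFNL2 at 0.51, RSAD2 at 0.84, OASL at 0.90 and CXorf49 at 0.97 log2 units. RSAD2 and OASL are interferon-stimulated antiviral genes. CXorf49 averaged 0 CPM in both mutants, 6.39 CPM in WT and 0.00966 CPM in GFP. For IFNB1 they were IL32 at 0.21, TNFAIP3 at 0.28, ISG20 at 0.31, PLAUR at 0.33 and MYEOV at 0.38 log2 units. TNFAIP3 encodes A20, an inhibitor of NF-kB signalling, and averaged 3.39 CPM in Mut_IDR3, 3.14 in ΔIDR3, 33.5 in WT and 3.51 in GFP. The search added a prior count of 2, which holds down the contrast of a gene with 0 counts outside WT. This weighs most on IFNB1, with 30, 14 and 25 counts in WT, so its list depends on the prior count and on depth. These likenesses describe 12 libraries in which WT stands apart. No such search was possible for IFNLR1.

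IFNLR1 (ENSG00000185436, chromosome 1, 24154157 to 24187959, minus strand), the chain specific to the interferon-λ receptor, had 0 counts in all 12 libraries, as did 4118 of the 24302 features. If reads of this gene were counted, 0 over 12 libraries allows a level of up to 0.00661 CPM. How reads were counted is not given in the sources used here, so the 0 need not mean that the transcript was absent. IFNLR1 did not pass the filter on low counts, so 7 of the 8 genes were tested. IL22RA1, its neighbour on chromosome 1 and the specific chain of the interleukin-22 receptor, was present at 2.70 ± 0.483 CPM in Mut_IDR3, 2.16 ± 0.476 in ΔIDR3, 4.59 ± 1.04 in WT and 2.78 ± 0.111 in GFP.

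IL10RB (ENSG00000243646, chromosome 21, 33266358 to 33310187, plus strand), the second chain of the interferon-λ receptor, was highest in WT. It had 32.2, 34.4 and 31.6 CPM in Mut_IDR3, 33.6, 28.03 and 26.4 CPM in ΔIDR3, 48.6, 51.2 and 47.0 CPM in WT and 35.3, 39.2 and 36.9 CPM in GFP. Every WT library was above every other library, the GFP libraries were above those of both mutants, and the mutants overlapped. The log2 fold change was −0.58 (SE 0.089) in Mut_IDR3 against WT, −0.74 (SE 0.090) in ΔIDR3 against WT, and 0.40 (SE 0.089) in WT against GFP. Against GFP it was −0.18 (SE 0.089) in Mut_IDR3 and −0.34 (SE 0.090) in ΔIDR3.

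IFNAR1 (ENSG00000142166, chromosome 21, 33324477 to 33359862, plus strand), the first chain of the type I receptor, was lowest in WT. Mut_IDR3 libraries had 33.9, 36.2 and 31.3 CPM, ΔIDR3 libraries 31.1, 38.03 and 37.6 CPM, WT libraries 21.3, 24.2 and 21.2 CPM and GFP libraries 36.8, 37.9 and 34.3 CPM. WT did not overlap with any other group, while both mutants overlapped with GFP and with each other. The log2 fold change was 0.60 (SE 0.095) in Mut_IDR3 against WT, 0.68 (SE 0.094) in ΔIDR3 against WT and −0.71 (SE 0.095) in WT against GFP. In the mutants against GFP it was −0.10 (SE 0.093) in Mut_IDR3 and −0.03 (SE 0.093) in ΔIDR3.

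IFNAR2 (ENSG00000159110, chromosome 21, 33229901 to 33265675, plus strand), the other type I chain, varied least among the expressed receptor chains. It had 23.8, 25.2 and 25.8 CPM in Mut_IDR3, 21.9, 21.2 and 22.0 CPM in ΔIDR3, 22.6, 23.8 and 20.8 CPM in WT and 25.3, 29.5 and 25.0 CPM in GFP. GFP was highest, overlapped with Mut_IDR3 and did not overlap with WT or ΔIDR3, and the ΔIDR3 libraries lay within the range of WT. Its log2 fold change was −0.25 (SE 0.085) in WT and −0.29 (SE 0.085) in ΔIDR3 against GFP, and −0.09 (SE 0.085) in Mut_IDR3 against GFP. Against WT it was 0.15 (SE 0.085) in Mut_IDR3 and −0.05 (SE 0.085) in ΔIDR3. Without GFP replicate 2, the highest library, the value for WT against GFP was −0.16 and that for ΔIDR3 against GFP −0.23, and neither passed the threshold. Without WT replicate 3 the first of these was −0.19, and without ΔIDR3 replicate 2 the second was −0.29, again past no threshold.

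**Figure D2:**
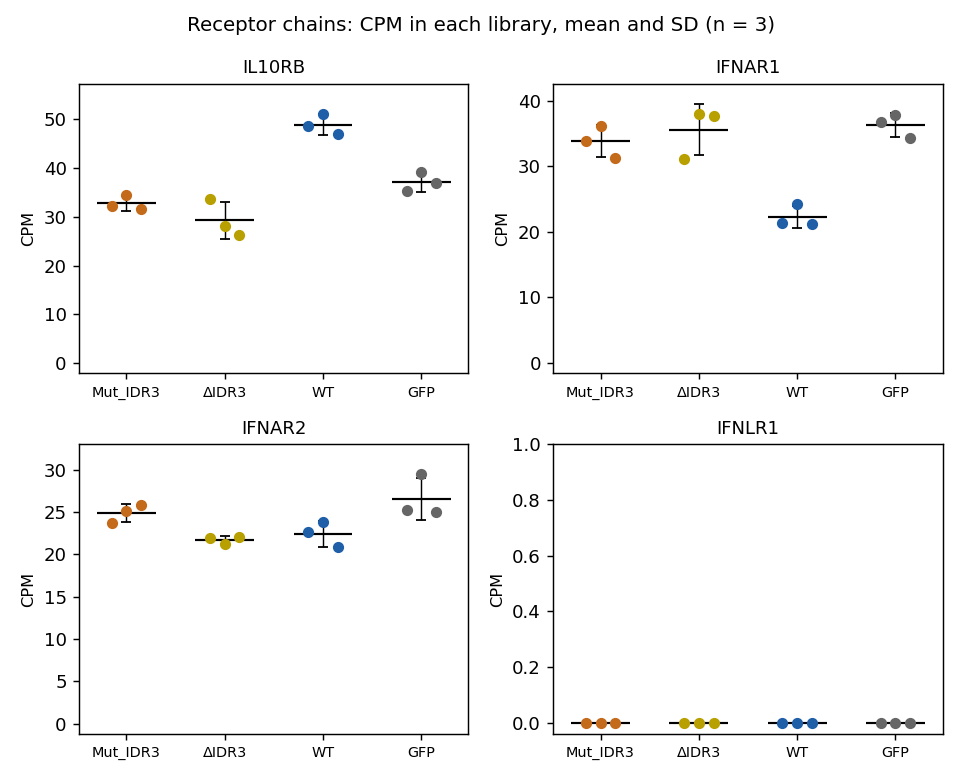
Level of the 4 receptor genes in CPM (vertical axes from 0) in each library of Mut_IDR3, ΔIDR3, WT and GFP. Points are libraries, the line is the mean and the bar the SD (n = 3). WT is above all other libraries for IL10RB (47.0 to 51.2 CPM) and below them for IFNAR1 (21.2 to 24.2 CPM), and IFNLR1 is at 0 throughout.

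The balance of the chains therefore differed in WT. Per kilobase of exon, IL10RB stood to IFNAR1 at 1.32, 1.32 and 1.40 in Mut_IDR3, 1.5, 1.02 and 0.971 in ΔIDR3, 3.16, 2.93 and 3.07 in WT and 1.33, 1.43 and 1.49 in GFP. IL10RB stood to IFNAR2 at 2.18, 2.18 and 2.29 in WT, against 1.21 to 1.56 over the libraries of the other groups. The ratio of IFNAR2 to IFNAR1 was 1.45, 1.34 and 1.34 in WT and 0.761 to 1.13 elsewhere. In GFP cells IFNAR1 and IFNAR2 had like levels per kilobase of exon, at 5.76 ± 0.290 and 5.76 ± 0.541 CPM, and IL10RB was at 8.16 ± 0.429 CPM. Levels of different genes on this scale depend on the merged exon length, which may differ from that of the transcripts expressed.

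IFNAR2, IL10RB, IFNAR1 and IFNGR2, the second chain of the interferon-γ receptor, lie in this order on the plus strand of chromosome 21. IFNGR2 (ENSG00000159128, 33402896 to 33479348) averaged 53.3 ± 1.87 CPM in Mut_IDR3, 41.1 ± 2.14 in ΔIDR3, 81.6 ± 4.74 in WT and 55.2 ± 2.12 in GFP. Neighbours in the cluster thus did not move together, since IFNAR1 lies between IL10RB and IFNGR2 and was low in WT where those were high. A readthrough gene that spans IFNAR2 and IL10RB (AP000295.1, ENSG00000249624) had 6 counts in Mut_IDR3 replicate 3 and 0 elsewhere. Genes on the opposite strand overlap IFNAR2 (IL10RB-DT) and IFNGR2 (TMEM50B). Whether counting used strand is not given in the sources used here, so reads from the overlaps cannot be told apart.

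The transcripts of these genes differ in GC content, at 39.8% for IL10RB, 42.3% for IFNAR1, 47.0% for IFNAR2 and 55.0% for IFNGR2. With offsets that removed the GC trend of each library, the value of IL10RB in WT against GFP was 0.91 and that of IFNAR1 −0.38, against 0.40 and −0.71 without them. The mutants against WT moved likewise, to −0.89 in Mut_IDR3 and −1.13 in ΔIDR3 for IL10RB and to 0.40 in each for IFNAR1. No direction changed among these. IL10RB in ΔIDR3 against GFP was −0.22 with the offsets and no longer passed the threshold.

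**Figure D3:**
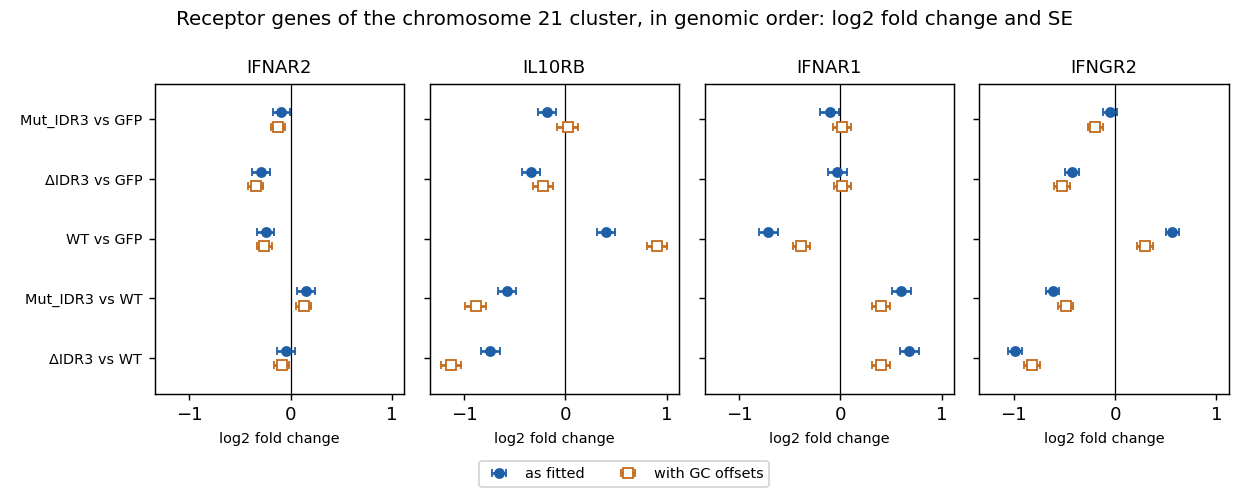
Log2 fold changes with SE (horizontal axes) of the 4 receptor genes of the chromosome 21 cluster in 5 comparisons (rows), as fitted (filled) and with GC offsets (open squares). IL10RB lies at 0.40 and IFNAR1 at −0.71 in WT against GFP, on opposite sides of 0 in each fit, and both mutants against WT show the reverse signs.

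Beside these values stand the shares of all 14792 tested features called at an adjusted p under 0.05. In WT against GFP 27.7% were called higher and 27.1% lower, and of the 7 tested genes 5 were called higher and 2 lower. In Mut_IDR3 against WT 23.2% were called higher and 20.9% lower, with 1 gene higher (IFNAR1) and 5 lower. ΔIDR3 against WT gave 27.2% higher and 25.0% lower, with the same 1 and 5. Nothing is read from these counts, since the genes were chosen on the WT and GFP values and the interferon genes passed the filter on low counts only through WT. Mut_IDR3 against GFP had 11.2% of features higher and 9.85% lower, and 0 of the 3 receptor genes with counts were called, with 1 (IL10RB) called when only those 2 groups were fitted. ΔIDR3 against GFP had 15.6% higher and 13.4% lower, with 0 of these 3 higher and 2 lower (IL10RB and IFNAR2). The 4 interferon genes, with 0 to 3 counts over each of these groups, could not be called against GFP in either mutant.

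Whether the mutants differed from each other could be tested, as the difference of their levels holds no WT or GFP value. WT and GFP libraries still entered the filter, the scaling and the dispersion of the shared fit. Earlier results of these data were also known when the genes were chosen. Of all features 5.54% were called higher and 5.24% lower in Mut_IDR3 against ΔIDR3, so that 51.4% of the calls were higher, and 65.3% with upper-quartile scaling. The 4 interferon genes had 0 to 2 counts over each mutant and could not be called. Of the 3 receptor genes with counts, 0 were called by edgeR, 1 (IFNAR2) had an unadjusted p under 0.05, and DESeq2 and limma-voom called 0. The log2 fold change of IFNAR2 was 0.20 (SE 0.085, edgeR adjusted p = 0.149), that of IL10RB was 0.16 (SE 0.090, adjusted p = 0.287) and that of IFNAR1 was −0.08 (SE 0.093, adjusted p = 0.673). For the 4 interferon genes both mutants were at or under the floor and no fold is given. These values do not show that the mutants are alike.

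The pathway around the receptors was followed in lists of genes by role, fitted with edgeR's quasi-likelihood test and Benjamini-Hochberg adjustment over all features. These lists were also chosen with earlier results of these data known. Their counts and adjusted p-values in comparisons that involve WT or GFP are therefore a description too. The counts in each list stand beside the shares of all features given above, and some lie near them. In WT against GFP 3 of 12 regulators of interferon genes fell, where 27.1% of all features did. Of 7 related receptor chains 4 were tested. In WT against GFP 2 rose and 1 fell, in Mut_IDR3 against WT 1 rose and 2 fell, and in ΔIDR3 0 rose and 3 fell, both against WT and against GFP. IFNGR2 rose in WT against GFP by 0.57 on the log2 scale (SE 0.066, adjusted p = 4.48e-06), and by 0.30 with GC offsets (adjusted p = 0.00505). It fell by 0.62 in Mut_IDR3 and by 0.99 in ΔIDR3 against WT (adjusted p = 3.89e-06 and 2.06e-08), and was higher in Mut_IDR3 than in ΔIDR3 by 0.37 (adjusted p = 0.00294). IFNGR1, the ligand-binding chain for interferon-γ, was at −0.44 in WT against GFP (adjusted p = 0.00025), a value of 0.04 with GC offsets (adjusted p = 0.717). IL22RA1 was at 0.73 in WT against GFP (adjusted p = 0.013), and with GC offsets at 0.37 (adjusted p = 0.161). IL20RB, a chain for interleukins of the IL-20 group, fell in ΔIDR3 by 1.27 against GFP (adjusted p = 0.000368) and was higher in Mut_IDR3 than in ΔIDR3 by 1.17 (adjusted p = 0.00256). IL20RA and IL22RA2 had 0 counts, and IL10RA had 3 counts in GFP replicate 1 alone.

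Interleukins that signal through IL10RB had no counts. IL10, IL22 and IL26, and the related IL19, had 0 counts in all libraries, and IL20 had 2 counts in 1 GFP library. IL24, a cytokine of the same family that acts through receptors with the chain IL20RB, was the 1 tested ligand. It had 0, 0.182 and 0.464 CPM in Mut_IDR3, 0.349, 0.390 and 0.363 CPM in ΔIDR3, 3.94, 3.73 and 2.87 CPM in WT and 0.145, 0.466 and 0.231 CPM in GFP. WT was above all other libraries. IL24 was lower in both mutants than in WT, with log2 fold changes of −3.93 in Mut_IDR3 and −3.25 in ΔIDR3 (adjusted p = 0.000176 and 0.000384), and 12.5-fold higher in WT than in GFP (adjusted p = 0.000167).

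Of 8 genes of signal transduction, 4 rose and 0 fell in WT against GFP, with a median log2 fold change of 0.20 against −0.01 over all features, and with GC offsets 4 rose and 1 fell. STAT3 rose by 0.74 (adjusted p = 2.21e-08), STAT2 by 0.84 (adjusted p = 4.9e-07) and IRF9 by 1.71 (adjusted p = 0.00863). The kinases JAK1, at −0.09, and TYK2, at 0.25, did not pass (adjusted p = 0.269 and 0.0534). STAT2 averaged 33.6 ± 1.40 CPM in Mut_IDR3, 27.1 ± 1.70 in ΔIDR3, 68.7 ± 6.14 in WT and 38.3 ± 1.04 in GFP, and its groups did not overlap between WT and the rest. IRF9, which joins STAT2 in the complex that binds interferon-stimulated genes, was uneven. It had 301, 95 and 514 counts in WT, against 78, 81 and 105 in GFP. In CPM these are 8.29, 2.81 and 12.4 in WT, against 2.26, 2.51 and 2.43 in GFP, so WT replicate 2 lay close above the GFP libraries. The values were 3.25, 2.56 and 2.71 CPM in Mut_IDR3 and 3.14, 1.04 and 0.629 CPM in ΔIDR3. WT replicate 2 thus lay below replicate 1 of each mutant, and WT overlapped with both mutants in this gene. In Mut_IDR3 against WT 0 of the 8 rose and 5 fell, and in ΔIDR3 against WT 3 rose and 5 fell. Against GFP 0 rose and 1 fell in Mut_IDR3, and 1 rose and 2 fell in ΔIDR3.

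Of 9 negative regulators of this signalling, 6 rose and 3 fell in WT against GFP, and with GC offsets 3 rose and 2 fell. The median was 0.32, and 0.05 with the offsets. SOCS1, an inhibitor of JAK kinases, had 0.354, 0.548 and 0.278 CPM in Mut_IDR3, 0.823, 1.01 and 0.774 CPM in ΔIDR3, 2.86, 4.03 and 3.16 CPM in WT and 0.203, 0.279 and 0.254 CPM in GFP. Its level was highest in WT and second highest in ΔIDR3, with no overlap of either with the other groups. It rose by 3.75 in WT against GFP (adjusted p = 6.11e-07) and by 1.81 in ΔIDR3 against GFP (adjusted p = 0.00162), and was lower in Mut_IDR3 than in ΔIDR3 by 1.14 on the log2 scale (adjusted p = 0.045). SOCS3 rose by 1.98 in WT against GFP (adjusted p = 4.73e-09). USP18, which removes ISG15 from proteins and blocks IFNAR2, rose by 1.14 (adjusted p = 2.85e-08) and was at −0.06 in Mut_IDR3 and −0.09 in ΔIDR3 against GFP (adjusted p = 0.634 and 0.411). The phosphatase gene PTPN11 fell by 0.89 in WT against GFP (adjusted p = 2.09e-07), and by 0.55 with GC offsets. In Mut_IDR3 against WT 2 of the 9 rose and 5 fell, and in ΔIDR3 against WT 3 rose and 5 fell. Against GFP 0 rose and 2 fell in Mut_IDR3, and 2 rose and 1 fell in ΔIDR3.

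Among 16 regulators of interferon genes 12 were tested, and 8 rose and 3 fell in WT against GFP, with a median of 0.52. With GC offsets 7 rose and 3 fell, with a median of 0.27. IRF1, a factor that binds IRF elements, averaged 47.8 ± 2.17 CPM in Mut_IDR3, 32.5 ± 0.725 in ΔIDR3, 153 ± 7.60 in WT and 53.6 ± 1.60 in GFP. Against GFP it rose by 1.52 in WT (adjusted p = 5.94e-11), was at −0.16 in Mut_IDR3 (adjusted p = 0.062, and −0.29 with an adjusted p of 0.000907 with GC offsets) and fell by 0.72 in ΔIDR3 (adjusted p = 9.43e-07). JUN, a partner in the factor set that binds the IFNB1 promoter, rose by 2.39 in WT (adjusted p = 1.38e-10) and by 1.13 in ΔIDR3 (adjusted p = 1.63e-06) against GFP. The NF-kB subunit RELA rose by 0.84 in WT (adjusted p = 4.6e-07) and NFKB1 by 0.52 (adjusted p = 6.32e-06). RELA averaged 84.7 CPM in Mut_IDR3, 77.8 in ΔIDR3, 116.5 in WT and 65.3 in GFP. NFKB1 averaged 48.3, 54.6, 52.8 and 36.8 CPM in that order. REL, another subunit, fell by 1.38 in WT against GFP (adjusted p = 2.75e-06). It averaged 10.8 CPM in Mut_IDR3, 10.6 in ΔIDR3, 6.87 in WT and 17.9 in GFP. For RELA, NFKB1 and REL the means of both mutants lay on the same side of GFP as that of WT. TBK1, the kinase that activates IRF3, fell by 1.00 in WT against GFP (adjusted p = 6.97e-05). IRF3 rose by 0.51 (adjusted p = 0.000113). With GC offsets these changes were smaller, at 0.50 for RELA, −0.80 for REL, −0.47 for TBK1 and 0.19 for IRF3. ATF2 was at −0.76 (adjusted p = 6.54e-06), which was −0.11 with GC offsets (adjusted p = 0.344). IRF8 had 0 counts in all libraries, and IRF7, PRDM1 and ZEB1 did not pass the filter. Mut_IDR3 and ΔIDR3 against WT each had 3 genes risen and 7 fallen, and against GFP 3 rose and 1 fell in Mut_IDR3 and 3 rose and 2 fell in ΔIDR3.

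Of 26 interferon response genes 23 were tested. In WT against GFP 19 rose and 0 fell with a median of 2.87, and 4 were not called. The risen genes with the lowest adjusted p were OASL at 6.58 (SE 0.085, adjusted p = 2.27e-16), ISG15 at 5.14 (adjusted p = 3.93e-16) and IFIT1 at 4.71 (adjusted p = 2.57e-15). Other genes of the list differed little, as PARP9 averaged 39.6 CPM in WT and 41.6 in GFP, and DTX3L 40.7 and 38.2. The untested XAF1, CMPK2 and EPSTI1 had 2, 2 and 0 counts over WT and 20, 3 and 15 over GFP. Both mutants lay below GFP in this list. In Mut_IDR3 against GFP 1 rose and 12 fell with a median of −0.53, and in ΔIDR3 against GFP 0 rose and 17 fell with a median of −1.31. IFIT1, a sensor of viral RNA, averaged 7.21 ± 0.0556 CPM in Mut_IDR3, 7.32 ± 0.395 in ΔIDR3, 426 ± 40.8 in WT and 16.3 ± 1.17 in GFP. Against GFP it fell by 1.18 in Mut_IDR3 (adjusted p = 1.06e-06) and by 1.16 in ΔIDR3 (adjusted p = 2.71e-07). RSAD2 averaged 1.81 ± 0.418 CPM in Mut_IDR3, 0.681 ± 0.243 in ΔIDR3, 322 ± 28.9 in WT and 2.03 ± 0.365 in GFP. It was at −0.15 in Mut_IDR3 against GFP (adjusted p = 0.635), fell by 1.59 in ΔIDR3 (adjusted p = 0.000198) and was higher in Mut_IDR3 than in ΔIDR3 by 1.44 (adjusted p = 0.00197). In Mut_IDR3 against ΔIDR3 8 of the 23 rose and 0 fell. Against WT 0 rose in either mutant, 22 fell in Mut_IDR3 with a median of −4.07, and 23 fell in ΔIDR3 with a median of −5.08. With MX2 and IFI44L, which had 0 counts in 1 or both mutants, at the bound from the floor, the medians for ΔIDR3 were −5.03 against WT and −1.26 against GFP, and those for Mut_IDR3 did not change. The comparisons with GFP share its 3 libraries, so their values stand side by side only.

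**Figure D4:**
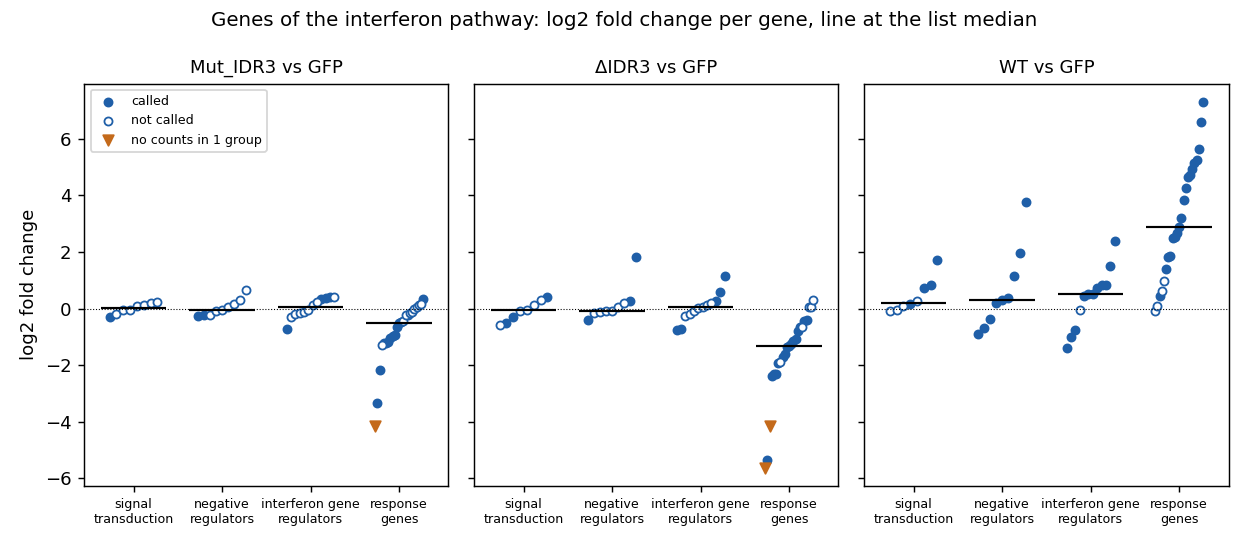
Log2 fold change (vertical axis) of each tested gene in 4 lists of the interferon pathway, in Mut_IDR3, ΔIDR3 and WT against GFP. Filled points were called at an adjusted p under 0.05, open points were not, triangles are fitted values of genes with 0 counts in 1 group, which are no bounds, and lines are medians, at 2.87 in WT, −0.53 in Mut_IDR3 and −1.31 in ΔIDR3 for the response genes.

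Over the 52 tested genes of the 4 pathway lists, 37 rose and 6 fell in WT against GFP, beside 27.7% and 27.1% of all features. In Mut_IDR3 against WT 5 rose and 39 fell, beside 23.2% and 20.9% of all features. In ΔIDR3 against WT 9 rose and 40 fell, beside 27.2% and 25.0%. Against GFP 4 rose and 16 fell in Mut_IDR3, beside 11.2% and 9.85%, and 6 rose and 22 fell in ΔIDR3, beside 15.6% and 13.4%. Between the mutants 13 were higher and 2 lower in Mut_IDR3 than in ΔIDR3, beside 5.54% and 5.24% of all features. Either limma-voom or a fit of those 2 groups alone called 9 in all. The interferon genes were thus at or under the floor in both mutants and GFP alike, while part of the response genes lay lower in the mutants than in GFP.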

How the data were processed

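Whole-number read counts per gene were deposited by the authors as 1 table of all 12 libraries and were used as deposited. Per the submitters' processing notes, the tools named were Trim Galore, HISAT2 and StringTie, on GRCh38 (hg38), with no version. Libraries were made from RNeasy RNA with a SMARTer mRNA kit, per the labels' protocols. How reads were counted, on which annotation release and with which strand setting, is not given in the sources used here.

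The genes and all lists were chosen with earlier results of these data known. Features were kept by filterByExpr (14792 of 24302), scaled by TMM and tested with edgeR 4.0.16 (quasi-likelihood F test, all 4 groups in 1 fit, 8 residual degrees of freedom, R 4.3.3), with Benjamini-Hochberg adjustment over all tested features and calls at an adjusted p under 0.05. With 3 libraries in each group the smallest p of an exact test would be 0.1. CPM are counts scaled by the TMM-adjusted library size, and log2 CPM in the likeness search used a prior count of 2. Exon lengths and coordinates (1-based) came from GENCODE on GRCh38, and promoters from RefSeq, where 7 of the 8 genes had an entry. GC offsets were medians over 20 bins of GC content, which 86% of tested features and 8 of 8 genes had. The code was tested on simulated counts.

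All 8 genes, TFAP2B and genes of the lists are named, with at least the 3 called genes of lowest adjusted p in WT against GFP and every gene without counts in a list, and the 5 genes most like IFNL1 and IFNB1. Not every gene of the lists is reported here. Alternatives were other scalings, a filter of 1 CPM in 3 libraries or none at all, DESeq2 1.42.0, limma-voom (limma 3.58.1), only the 2 groups compared, GC offsets, the replicate number as a block, and single libraries left out. No 2 libraries of the same group agreed within sampling noise.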

Additional observations from a re-analysis of the deposited data

How the results depend on the processing

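No called value of the 8 described genes changed direction under any alternative run. Of their values that were not called, IFNAR1 in each mutant against GFP and IL10RB in Mut_IDR3 against GFP lay on the other side of 0 under at least 1 alternative, the furthest at 0.04. For single genes of the other lists, the only alternative read was the fit of all features with GC offsets. In it IFNGR1, PTPN2 and PIAS4 in WT against GFP, called at −0.44, −0.38 and 0.32, were at 0.04, 0.13 and −0.01 and not called. IFNGR1 in Mut_IDR3 against WT (0.23) and PTPN2 and the marker TP63 in ΔIDR3 against WT (0.29 and 0.12) were at −0.07, −0.10 and −0.15. Leaving out 1 library gave 819 to 1143 features called in Mut_IDR3 against ΔIDR3 (1594 with all libraries), 1566 to 2277 in Mut_IDR3 against GFP (3114), 1 to 2 of the described genes in ΔIDR3 against GFP (2) and 10 to 13 pathway genes in Mut_IDR3 against ΔIDR3 (15). Fewer samples enter such fits. With GC offsets 1 described gene was called in ΔIDR3 against GFP, since IL10RB was at −0.22. With only the 2 groups compared, 1 gene was called in Mut_IDR3 against GFP (IL10RB, −0.19, against 0 genes in the fit of 4 groups), IFNAR2 in WT against GFP was no longer called, and 9 pathway genes were called in Mut_IDR3 against ΔIDR3, as with limma-voom. The cause was not tested.

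Replicate numbers are shared by the labels, but nothing says that they mark a shared culture or day, and deviations of same-numbered libraries correlated at −0.339 to 0.31, so the numbers were not taken as pairs. With the replicate block 7932 features were called in WT against GFP (8118 without it), 2795 in Mut_IDR3 against GFP and 1206 in Mut_IDR3 against ΔIDR3. The block alone changed no call of the described genes. GC offsets with the replicate block gave 1885 features in Mut_IDR3 against GFP, and 1 described gene called in ΔIDR3 against GFP.

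IFNB1 had no value under the filter of 1 CPM in 3 libraries, which it did not pass. Depth limits IFNB1, IFNLR1 and the interferon genes outside WT, where the counts are 0 to 3 over a group.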
